A study of Arabidopsis thaliana with 36 samples.

Results

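Transcript levels of 9 genes for enzymes that remove superoxide and hydrogen peroxide were followed in roots and shoots of Arabidopsis thaliana seedlings. They are the catalases CAT1 (AT1G20630), CAT2 (AT4G35090) and CAT3 (AT1G20620), the cytosolic ascorbate peroxidases APX1 (AT1G07890) and APX2 (AT3G09640), the dehydroascorbate reductase DHAR1 (AT1G19570), the copper/zinc superoxide dismutases CSD1 (AT1G08830) and CSD2 (AT2G28190) and the iron superoxide dismutase FSD1 (AT4G25100). They were chosen by their locus identifiers, and 9 of 9 were found among the 16283 genes of the table. All seedlings were wild type of the ecotype Columbia-0 and 7 d old. They were kept in water for 1 h, or in 30% polyethylene glycol (PEG, average molecular weight 8000, osmotic pressure -2.0 MPa) with salicylhydroxamic acid (SHAM) for 1, 2 or 3 h. SHAM inhibits the alternative oxidase and lipoxygenases. The sample labels give 1 mM SHAM and the treatment protocol also names 0.1 mM. It further names His (5 mM) for some solutions, but no sample label carries it. Titles separate the water libraries of each tissue into 3 sets (S0, PS0, PH0), beside 3 treated groups, each with 3 libraries of 30 to 50 pooled seedlings. No group with PEG or SHAM alone was analysed here, so the effects of the 2 agents cannot be told apart, and the later times are set against water of 1 h.

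Superoxide dismutases turn superoxide into hydrogen peroxide. Catalases break hydrogen peroxide down in peroxisomes, and ascorbate peroxidases reduce it with ascorbate, which dehydroascorbate reductases restore with glutathione. In Arabidopsis, CAT2 is known for its part in leaf photorespiration, CAT3 for an evening peak set by the circadian clock, and APX2 as a gene that is nearly silent until heat or excess light. CSD1 and CSD2 are targets of the microRNA miR398, as is CCS, the copper chaperone that loads them. When copper is scarce, CSD1 and CSD2 transcripts are known to fall and FSD1 to rise. No genome build was named with the files, and positions and sequences are not used here.

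Transcripts were counted by MARS-seq, which reads 3′ ends. The values are normalized counts (reads divided by a size factor per library) and are not divided by transcript length. The 36 libraries held between 161.7 and 7181.5 kiloreads (recovered reads), with a median of 1668.3. All 6 shoot markers (photosynthesis genes such as RBCS1A) were lower and all 6 root markers (such as AGP30) were higher in root than in shoot water libraries by the limma test described below. The shoot markers summed to between 217.9 and 1539.7 normalized counts in root libraries and to at least 62634.1 in shoot libraries. The root markers summed to between 475 and 1934.2 in root libraries and to at most 47.1 in shoot libraries, where AGP30, EXPA7, EXPA18, COBL9 and PRP3 were at 0 in 5 to 13 of 18. RBCS2B, COBL9 and PRP3 were each at 0 in 1 of 18 root libraries. Comparisons of all treated with all water libraries of a tissue were added after the data were seen. In them 5 of 6 root markers were called lower in roots and 5 of 6 shoot markers in shoots. The exceptions were AGP30 in roots, 330 ± 243 after treatment and 225 ± 76.3 normalized counts in water (SD, n = 9; limma adjusted p = 0.264), and RBCS1A in shoots (-0.40 ± 0.18 SE on the log2 scale, adjusted p = 0.0871). In roots the root markers summed to 475 to 1604.1 (median 686.8) after treatment and to 1055.6 to 1934.2 (median 1639.4) in water. In shoots the shoot markers summed to 62634.1 to 78408.9 after treatment and to 76796.4 to 146345 in water. Fewer cells of a type and less transcript per cell cannot be told apart in such bulk samples.

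In water, the 9 genes divided between the tissues. CSD1, DHAR1, CSD2 and APX1 were higher in roots, CAT3, FSD1 and CAT1 were higher in shoots, and CAT2 and APX2 were not called. Tests were made with limma on log2(normalized count + 1), and an adjusted p (Benjamini-Hochberg over all genes tested) under 0.05 was a call. By this rule 7 of the 9 were called, where 69.3% of all 13218 genes tested were called. The median difference of all genes was 0.58 on the log2 scale towards roots, and the members' median was 0.30. That median is the value of APX2, which had only 4 reads over the root and 0 over the shoot water libraries.

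CAT3 differed most. It ranged from 232.8 to 457.5 normalized counts in the 9 root water libraries (median 288.8) and from 1364.5 to 3255.8 in the 9 shoot ones (median 2626.7). The ranges did not overlap, as for 21.7% of all genes, and the log2 difference was -3.07 ± 0.17 (SE, adjusted p = 4.52e-17 by limma). CAT1 was also lower in roots, with 17.5 to 45.9 (median 21.7) against 44.4 to 123.8 (median 74) normalized counts, and its ranges met at their edges (-1.45 ± 0.23, adjusted p = 1.63e-06). CAT2 averaged 58.0 ± 25.9 in roots and 64.9 ± 51.7 in shoots (SD, n = 9), a difference within the spread of the libraries (0.10 ± 0.42, limma adjusted p = 0.848).

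Among the superoxide dismutases, CSD1, the cytosolic enzyme, reached 843.1 to 1819.5 normalized counts in root water libraries and 137.2 to 449.8 in shoot ones, with no overlap (2.34 ± 0.23, limma adjusted p = 1.14e-10). CSD2, the chloroplast enzyme, was also higher in roots, with 144.9 to 252.1 against 42.3 to 180.9 (1.39 ± 0.14, adjusted p = 1.19e-10). The overlap came from the PH0 shoot libraries. FSD1 went the other way, with 21.4 to 251.7 in roots and 71.1 to 1578 in shoots (-1.92 ± 0.44, adjusted p = 2.97e-04), and both ranges were wide.

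APX1, the main cytosolic ascorbate peroxidase, averaged 2155 ± 581 normalized counts in root and 1188 ± 454 in shoot water libraries (SD, n = 9). The log2 difference was 0.90 ± 0.11 (limma adjusted p = 8.36e-09), which lies 0.32 above the median of all genes. DHAR1 averaged 32.6 ± 31.5 in roots and 7.90 ± 10.1 in shoots (2.02 ± 0.50, adjusted p = 6.26e-04). These 7 calls stood under every alternative scaling, filter, test and left-out library that was run.

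**Figure D1:**
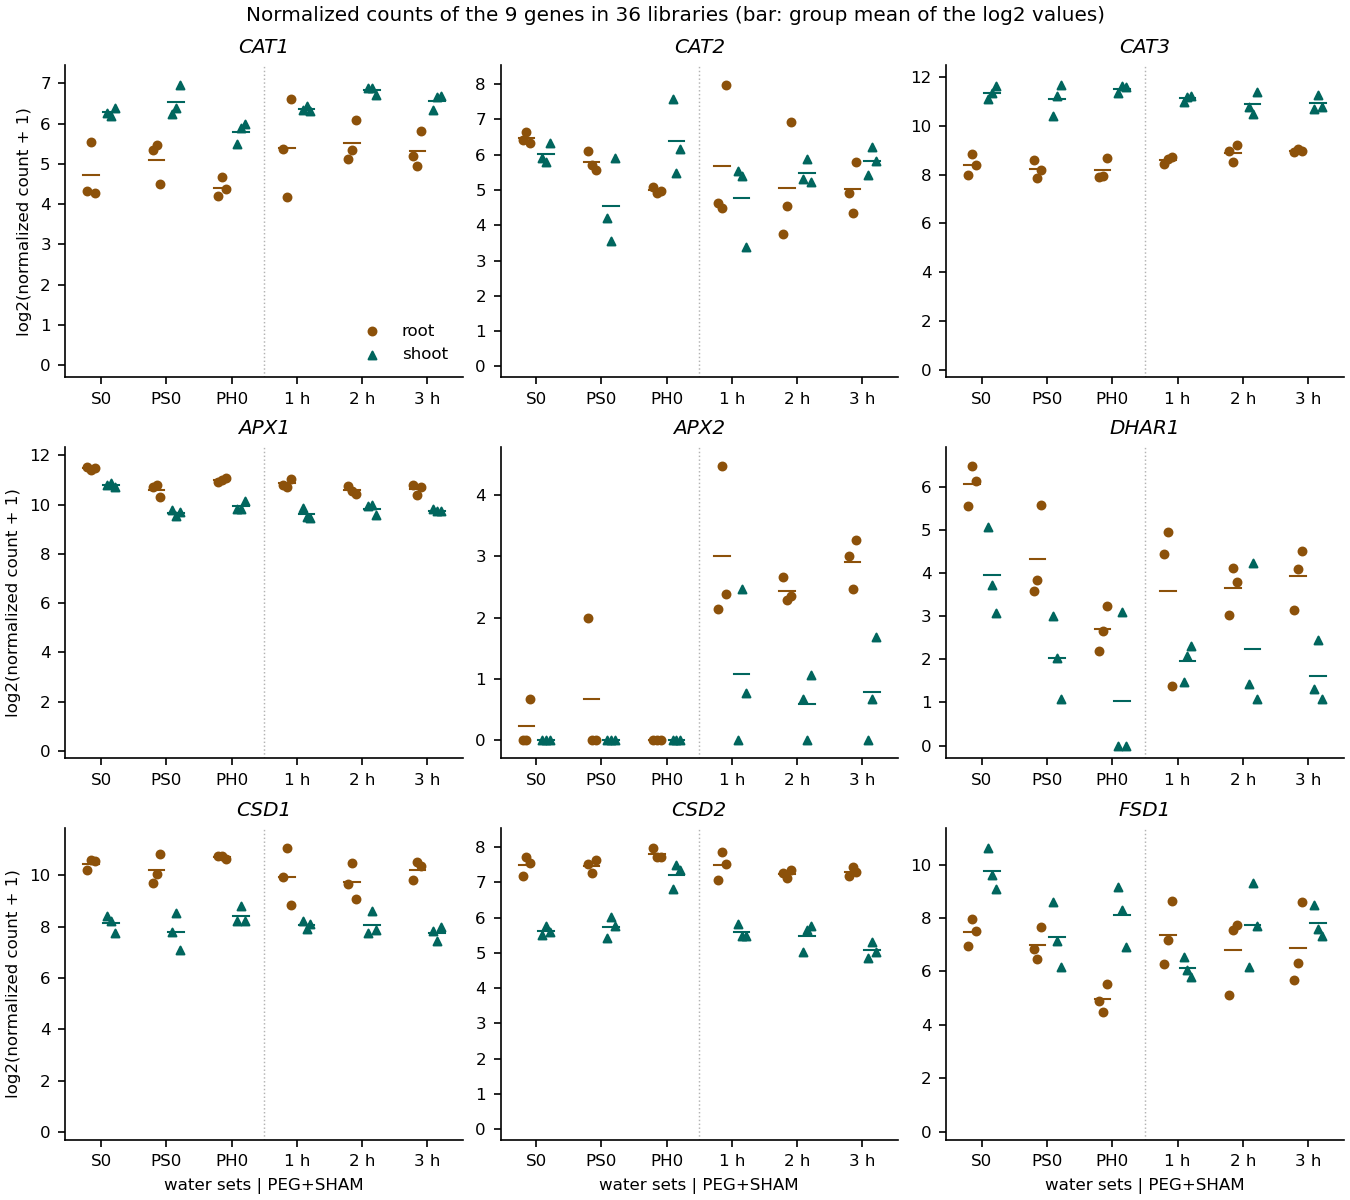
Normalized counts of the 9 genes on a log2(value + 1) scale in each library, for the 3 water sets and for 1, 2 and 3 h of PEG+SHAM. Circles are root and triangles shoot libraries, and bars are group means of the log2 values. CAT3 lies higher in every shoot than in every root library, and APX2 has reads in all 9 treated root libraries.

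**Figure D2:**
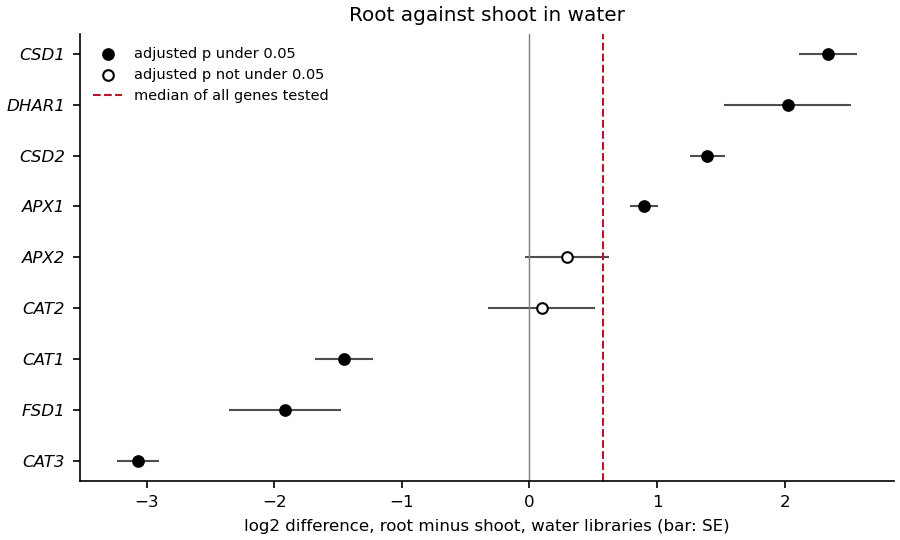
Log2 difference between root and shoot water libraries for each gene, with its standard error. Filled points have an adjusted p under 0.05, and the dashed line is the median of all genes tested, 0.58. CSD1 lies farthest on the root side (2.34) and CAT3 on the shoot side (-3.07).

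Under PEG+SHAM, few of the 9 genes moved away from the PS0 water set, which shares its title prefix with the treated groups. In roots limma called 0 of 9 at 1 h, 0 of 9 at 2 h and 1 of 9 at 3 h, where 1.67%, 3.04% and 6.56% of all 11950 genes tested were called. In shoots it called 0 of 8 at each of 1, 2 and 3 h, where 0.87%, 9.42% and 14% of all 10459 genes were called. At an unadjusted p under 0.05 the counts were 1, 2 and 2 in roots (17.3%, 15.1% and 20.8% of all genes) and 0, 0 and 2 in shoots (7.67%, 24.8% and 26.9%). edgeR and DESeq2 on the recovered reads called 0 at every time in both tissues. The gene called at 3 h in roots was APX2. The 3 comparisons in a tissue share the PS0 libraries, so they are not independent.

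APX2, the stress-inducible cytosolic ascorbate peroxidase, had 3.4, 21.3 and 4.2 normalized counts at 1 h in roots, 5.3, 3.9 and 4.1 at 2 h, and 7, 4.5 and 8.6 at 3 h. The PS0 root libraries had 3, 0 and 0, the S0 libraries 0, 0 and 0.6, and the PH0 libraries 0 in all 3. Every treated root library was thus above every root water library. No overlap in that direction was found for 1.27% of the genes tested in roots. APX2 entered the tested genes only through its treated libraries, so this separation is a description. The gap was small, with 3.4 in a 1 h library against 3 in a PS0 library.

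The reads behind these values were few. They came to 92 of 21137867 over the 9 treated root libraries and to 4 of 14742549 over the 9 water ones, which is 4.35 against 0.271 RPM on the scale of recovered reads. The ratio was 16.0, with a 95% interval of 6.06 to 60.1 that covers counting error only. APX2 passed the filter on low values in roots through its treated libraries alone, so it could pass only by being higher there. Its log2 changes, p-values and calls below are therefore a description.

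Against PS0 water the log2 change of APX2 was 2.33 ± 0.62 at 1 h (SE, limma adjusted p = 0.0623), 1.77 ± 0.62 at 2 h (adjusted p = 0.161) and 2.24 ± 0.62 at 3 h (adjusted p = 0.0367), on a scale that understates changes of low genes. The call at 3 h was lost with edgeR (adjusted p = 0.14), with DESeq2 (0.177), with the compared groups fitted alone (0.124) and without any of 5 of its 6 libraries (PS0 replicates 2 and 3 and each 3 h replicate, the largest adjusted p being 0.143). Over all 9 treated and all 9 water root libraries, a comparison added after the data were seen, the change was 2.48 ± 0.36 (adjusted p = 5.14e-05 by limma). With no filter on low values the adjusted p was 0.071 at 1 h, 0.179 at 2 h, 0.0426 at 3 h and 4.94e-05 over all libraries. Of the other 8 members limma called 0 at 3 h and 1, CAT3, over all libraries. The highest 1 h value came from a root library of 429.8 kiloreads, in which the gene had 5 reads and the shoot markers summed to 1539.7, the most of any root library. Their part in that value was not tested.

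In shoots APX2 was too low to be tested. It had 0 of 13505167 reads over the 9 water libraries, which allows up to 0.222 RPM (3 reads over the group). The 9 treated libraries had 13 of 14633030 reads, spread over 6 of them, or 0.888 RPM (95% Poisson interval 0.473 to 1.52, counting error only). The estimate of 0.888 RPM is 4.00 times the limit of 0.222 RPM, and the lower end of its interval, 0.473 RPM, lies nearer to that limit. Of these reads, 8 were in the 1 h libraries.

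Among the catalases in roots, CAT3 had 391.7, 232.8 and 288.8 normalized counts in PS0 water and 480, 527.1 and 500.4 at 3 h. Each 3 h library was above each PS0 library, as for 10% of the genes tested in that direction. The log2 differences were 0.38 ± 0.28 at 1 h, 0.69 ± 0.28 at 2 h and 0.75 ± 0.28 at 3 h, none of them called (limma adjusted p = 0.521, 0.235 and 0.12). Over all treated and all water root libraries CAT3 was called higher, with 460 ± 83.0 against 316 ± 85.1 normalized counts (SD, n = 9; 0.56 ± 0.16 SE, adjusted p = 0.012), where the median of all genes was -0.24. Together with APX2 it made 2 of 9 members called in this comparison, against 34.2% of all genes. In shoots CAT3 moved by 0.03 ± 0.27 at 1 h, -0.22 ± 0.27 at 2 h and -0.18 ± 0.27 at 3 h.

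CAT1, known for its response to abscisic acid, averaged 34.9 ± 11.6 normalized counts in PS0 root water and 40.4 ± 13.5 at 3 h (SD, n = 3). In shoots it was 118.1, 116.7 and 103.9 at 2 h against 74, 82.7 and 123.8 in PS0 water, and the groups overlapped. Its log2 changes against PS0 lay between -0.16 and 0.41 over both tissues and the 3 times. Over all treated and all water shoot libraries CAT1 was called higher (96.1 ± 15.7 against 75.1 ± 22 normalized counts, SD, n = 9; 0.39 ± 0.13 SE, limma adjusted p = 0.0227). That call was lost without the libraries under 600 kiloreads. In roots the same comparison gave 46.2 ± 23.8 against 27.7 ± 11.7 normalized counts (0.66 ± 0.29, adjusted p = 0.0894). It was called in 6 of 25 alternatives: TMM scaling, edgeR, DESeq2, without the libraries under 600 kiloreads, and without S0 replicate 2 or 1 h replicate 2 (lowest adjusted p 0.0121).

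CAT2 in roots was 67.8, 51.3 and 46.6 normalized counts in PS0 water and 29.4, 19.5 and 54.6 at 3 h. At 1 h it was 23.6, 21.3 and 251, and at 2 h 12.5, 22.2 and 120.3. The third replicate stood apart at both times, and the third 1 h library was also the deepest of all, with 7181.5 kiloreads. Over all treated and water root libraries CAT2 was not called (limma adjusted p = 0.417), and without that 1 h library it was called lower (adjusted p = 0.0476). That library held the highest CAT2 value of the treated root libraries, 251, so the call without it is a description. Its log2 difference over all libraries was -0.49 by limma and 0.32 by edgeR. In shoots CAT2 was 17.6, 10.7 and 59.4 in PS0 water and 41.6, 73 and 55.6 at 3 h (1.25 ± 0.59, adjusted p = 0.182). Leaving out the third PS0 shoot library, the highest of its set, gave an adjusted p of 0.0267, which is a description too. With S0 and PH0 water as the control the log2 difference at 3 h was -0.39.

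APX1 lay within 0.25 of PS0 water on the log2 scale in roots and within 0.17 in shoots. In roots it was 1671.1, 1763.5 and 1273 normalized counts in PS0 water and 1768.8, 1349.2 and 1685.4 at 3 h. In shoots it was 874.4, 730.3 and 832.4 in PS0 water and 891.1, 846.6 and 848.9 at 3 h. The SE of these differences was 0.22 in roots and 0.16 in shoots. With S0 and PH0 water as the control APX1 was called lower in roots at 2 h (-0.67, limma adjusted p = 0.0268) and 3 h (-0.60, adjusted p = 0.0321). By that control it was also called lower in shoots at 1, 2 and 3 h (-0.76, -0.53 and -0.61, adjusted p up to 0.00955). DHAR1 was low and uneven, with 11.1, 13.3 and 46.6 in PS0 root water and 7.9, 16.2 and 22 at 3 h (-0.41 ± 0.74), and at most 18 in any treated shoot library.

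Of the superoxide dismutases in shoots, CSD2 was 42.3, 64.3 and 53.8 normalized counts in PS0 water and 28.2, 38.8 and 31.6 at 3 h. The 3 h libraries were all below the PS0 libraries, as for 16.9% of the genes tested in that direction. The log2 change was -0.68 ± 0.26 (limma adjusted p = 0.1), and it was called without the libraries under 600 kiloreads. CSD1 in the same shoots was 222.1, 370.5 and 137.2 in PS0 water and 228.7, 175.1 and 251 at 3 h, with overlap (-0.06 ± 0.30). In roots CSD2 changed by at most 0.23 against PS0 water in size. Root CSD1 ranged from 465.4 to 2153.9 over the 9 treated libraries and from 843.1 to 1819.5 over the 9 water libraries.

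FSD1 in shoots was 387.9, 140.9 and 71.1 normalized counts in PS0 water, 91.4, 64.7 and 55.1 at 1 h. It was 70.9, 642 and 209 at 2 h, and the 3 h libraries had 355, 190.6 and 161.5. The 3 h libraries were all above the 1 h libraries, as for 15.6% of the genes tested in that direction, and the log2 difference was 1.67 ± 0.68 (limma adjusted p = 0.191). It was called without the libraries under 600 kiloreads. In the comparison of 3 h with 1 h limma called 0 of 9 members in roots and 0 of 8 in shoots, where 1.27% and 6.24% of all genes were called. At an unadjusted p under 0.05 these counts were 0 and 1 (9.17% and 17.3% of all genes), and edgeR and DESeq2 called 0 in each. In roots FSD1 was 77.4, 145 and 402.1 at 1 h. The 2 h libraries had 34.1, 186 and 215 and the 3 h libraries 50.8, 79.1 and 387.3, so the third replicate was the highest at each time.

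**Figure D3:**
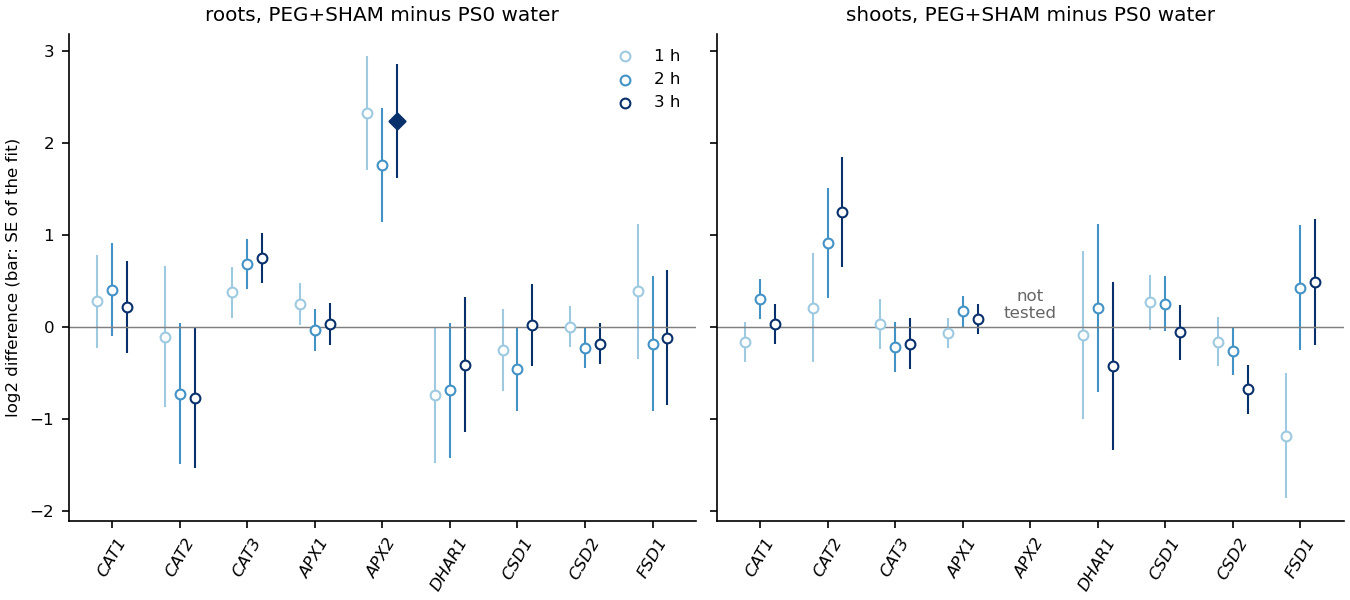
Log2 difference between each PEG+SHAM group and the PS0 water set, with its standard error, for roots on the left and shoots on the right. The filled diamond is the single value with an adjusted p under 0.05, APX2 in roots at 3 h (2.24), and APX2 was not tested in shoots.

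The comparison of all 9 treated with all 9 water shoot libraries was also added after the data were seen. In it 4 of 8 members were called (34.3% of all genes), with CSD2, APX1 and FSD1 lower and CAT1 higher. CSD2 averaged 41.7 ± 9.87 against 84.5 ± 53.9 normalized counts (SD, n = 9; -0.82 ± 0.15 SE, limma adjusted p = 3.77e-04). APX1 averaged 855 ± 112 against 1188 ± 454 (-0.40 ± 0.09, adjusted p = 0.00297), a call lost with TMM scaling (adjusted p = 0.113) and with edgeR. FSD1 averaged 204 ± 190 against 500 ± 468 (-1.18 ± 0.39, adjusted p = 0.0266), a call lost without any of 4 libraries, S0 replicate 1, PS0 replicate 1, 2 h replicate 1 or 3 h replicate 3 (the largest adjusted p being 0.0643). In each case 1 water set stood above the others, PH0 for CSD2 and S0 for APX1 and FSD1, and against PS0 water alone none of these 3 genes was called at any time. The shoot markers were lower in the same treated shoot libraries (5 of 6 called), and their part in these results was not tested.

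The responses of the tissues were compared directly as the root change minus the shoot change against PS0 water. limma called 0 of 8 members at 1, 2 and 3 h, where 0.348%, 2.63% and 3.83% of all 9191 genes tested were called. edgeR and DESeq2 also called 0, and at an unadjusted p under 0.05 the counts were 0, 1 and 1 (7.67%, 14.1% and 16.8% of all genes). The gene behind the latter was CAT3, with 0.90 ± 0.41 at 2 h and 0.93 ± 0.41 at 3 h (limma adjusted p = 0.297 and 0.231). With all 3 water sets as the control it was called at both times. CAT2 had the largest difference at 3 h, -2.02 ± 1.04 (adjusted p = 0.329).

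The water sets carry 1 treatment label, yet several members differed among them. In shoots PS0 water was lower than S0 and PH0 water for 2 of 8 members (12% of all genes were called), APX1 (-0.70 ± 0.14, limma adjusted p = 0.00326) and CAT2 (-1.65 ± 0.52, adjusted p = 0.043). The CAT2 call was lost under 12 of 16 alternatives, 6 of them left-out libraries (each S0 replicate, PS0 replicates 1 and 2 and PH0 replicate 1, the largest adjusted p being 0.256). In roots 0 of 9 were called (3.94% of all genes) and 1, APX1, had an unadjusted p under 0.05, as did 17.3% of all genes (-0.63 ± 0.19, adjusted p = 0.0779). edgeR called 0 and DESeq2 called 1.

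Between S0 and PH0 water, a comparison added after the data were seen, limma called 3 of 8 members in shoots and 1 of 9 in roots (16.5% and 3.87% of all genes). In roots the count over all genes, 463, fell to between 1 and 50 when any 1 library was left out. CSD2 was 44.8, 53 and 47 normalized counts in S0 and 111, 180.9 and 163.1 in PH0 shoots (log2 difference S0 minus PH0 of -1.61 ± 0.26, adjusted p = 0.00152). All PH0 libraries were above all other shoot libraries, as for 3.97% of the genes tested. CCS, the copper chaperone, was also higher in PH0 shoots, with 34, 46.2 and 32.4 in S0 and 111, 133.8 and 85.1 in PH0 shoots (-1.52 ± 0.28, adjusted p = 0.00287). CSD1, which shares miR398 with them, was 343.1, 297.4 and 217.1 in S0 and 299.8, 449.8 and 301.4 in PH0 shoots, and these overlapped (-0.29 ± 0.30, adjusted p = 0.523). FSD1 was 1578, 771.4 and 539.8 in S0 and 577.3, 310.9 and 118.8 in PH0 shoots (1.64 ± 0.68, adjusted p = 0.102).

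APX1 was highest in S0 water in both tissues. In shoots it was 1769.6, 1872.9 and 1676.7 normalized counts in S0 and 910.4, 894.5 and 1131.3 in PH0 (0.86 ± 0.16, limma adjusted p = 0.00343). In roots it was 2976, 2675.1 and 2884.7 in S0 and 1934.9, 2060.7 and 2158 in PH0 (0.47 ± 0.22, adjusted p = 0.189). Each S0 library was above every other library of its tissue, as for 7.79% of the genes tested in roots and 3.81% in shoots. DHAR1 also had its highest mean in S0 water, with 46.5, 88.6 and 70 in S0 and 3.6, 5.3 and 8.4 in PH0 roots (3.37 ± 0.74, adjusted p = 0.0302). That call was lost when any of its 6 libraries was left out, with adjusted p up to 0.162. In shoots DHAR1 was 32.5, 12.2 and 7.5 in S0 and 0, 7.6 and 0 in PH0 (2.92 ± 0.92, adjusted p = 0.0366), a call lost with edgeR and DESeq2 and without S0 replicate 1 or 2 or PH0 replicate 1 or 3. PH0 replicate 1 in shoots held 161.7 kiloreads, the fewest of all libraries.

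The clock gene TOC1, which peaks in the evening, differed between the same sets. It was 17, 14.9 and 26.3 normalized counts in S0 and 133.2, 80.3 and 76.2 in PH0 shoots (-2.25 ± 0.40, limma adjusted p = 0.00235). Of 5 clock genes tested, 1, TOC1, was called between these sets, beside 16.5% of all genes. LUX, another evening gene, lay the other way with 225 normalized counts in S0 and 147 in PH0 shoots (0.63 ± 0.22, adjusted p = 0.0539), and GI differed by -0.97 ± 0.35 (adjusted p = 0.067). Their part in the members' differences was not tested.

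**Figure D4:**
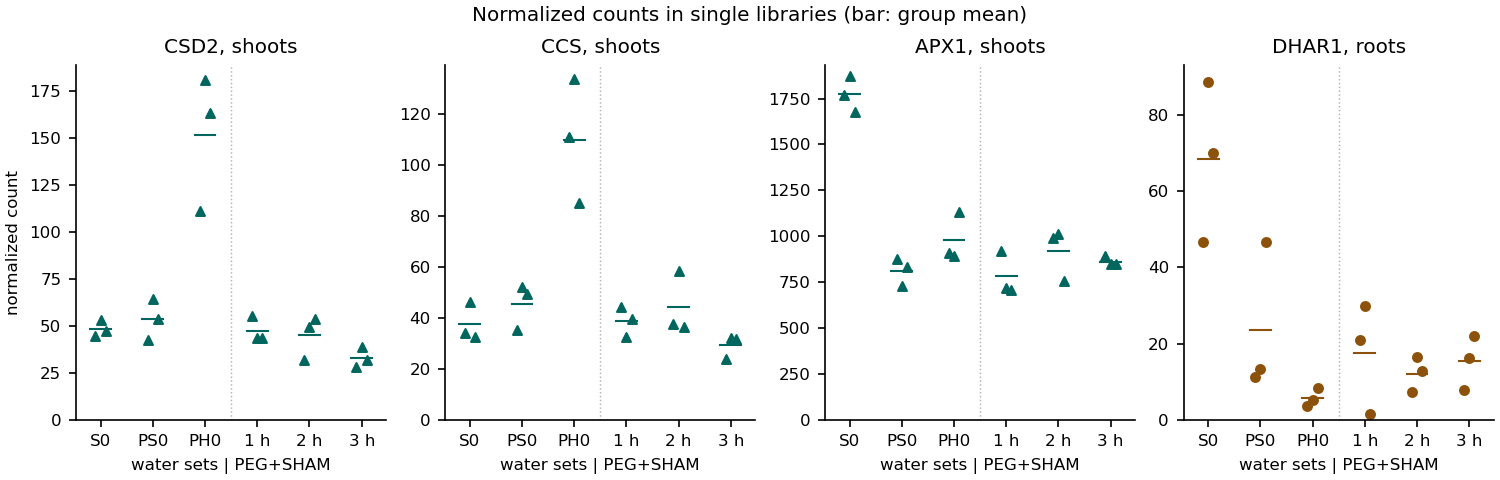
Normalized counts of CSD2, CCS and APX1 in single shoot libraries and of DHAR1 in single root libraries, for the 3 water sets and 3 times of PEG+SHAM. Bars are group means. CSD2 and CCS stand highest in PH0 water, from 111 and 85.1 up, and APX1 and DHAR1 have their highest group mean in S0 water.

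Shares within an enzyme family do not depend on the scaling between libraries. CAT2 made 6.69% to 23.8% of the summed catalase signal in the 9 root water libraries (mean 14.3% ± 5.02 SD) and 2.28% to 32.7% in the 9 treated ones (9.31% ± 9.55). The difference of -5.02 percentage points had p = 0.185 in an exact two-sided permutation test. Without the third 1 h library the difference was -7.94 points with p = 0.00329 by the same exact permutation test. That library held the highest share, 32.7%, and leaving it out gave the largest difference of any left-out library. The p-value without it is therefore a description. At 3 h the 3 root libraries had 5.39%, 3.38% and 8.94%, all below the PS0 libraries with 13.6%, 15.7% and 13.05%. The exact permutation p was 0.1, the smallest that 3 against 3 libraries allow. In shoots CAT2 made between 0.376% and 6.64% of the catalase signal, with 2.27% ± 1.77 in water and 2.11% ± 0.947 after treatment (SD, n = 9, exact permutation p = 0.864). At 3 h each shoot library was above each PS0 library, with 2.31%, 2.74% and 2.90% against 1.21%, 0.428% and 1.73% (exact permutation p = 0.1, again the smallest possible). CAT2 was thus a minor part of the catalase signal in every shoot library, as counted from 3′ ends. Reads that could come from more than 1 catalase gene may have been split or dropped in counting, which the labels do not describe.

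FSD1 made 1.08% to 12.4% of the summed signal of FSD1, CSD1 and CSD2 in root water libraries (mean 6.82% ± 4.17 SD) and 3.44% to 38.3% in treated ones (13.1% ± 11.9), a difference of 6.31 points (n = 9, exact permutation p = 0.159). The third replicates of 1, 2 and 3 h had 38.3%, 23.3% and 20.9%, and the other treated root libraries had at most 10.6%. In shoots FSD1 made 20.4% to 80.3% in water (48.8% ± 22.5) and 14.8% to 59.6% after treatment (35.5% ± 17.3), a difference of -13.3 points (n = 9, exact permutation p = 0.175). In S0 shoots it made 80.3%, 68.8% and 67.1%. At 1 h it made 20.5%, 18.5% and 14.8%, all below the PS0 libraries with 59.5%, 24.5% and 27.1% (exact permutation p = 0.1, the smallest possible). These sums leave out MSD1, the mitochondrial manganese enzyme, which averaged 780 ± 48.9 normalized counts in S0 shoots (SD, n = 3) and 893 ± 134 in root water libraries (n = 9).

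**Figure D5:**
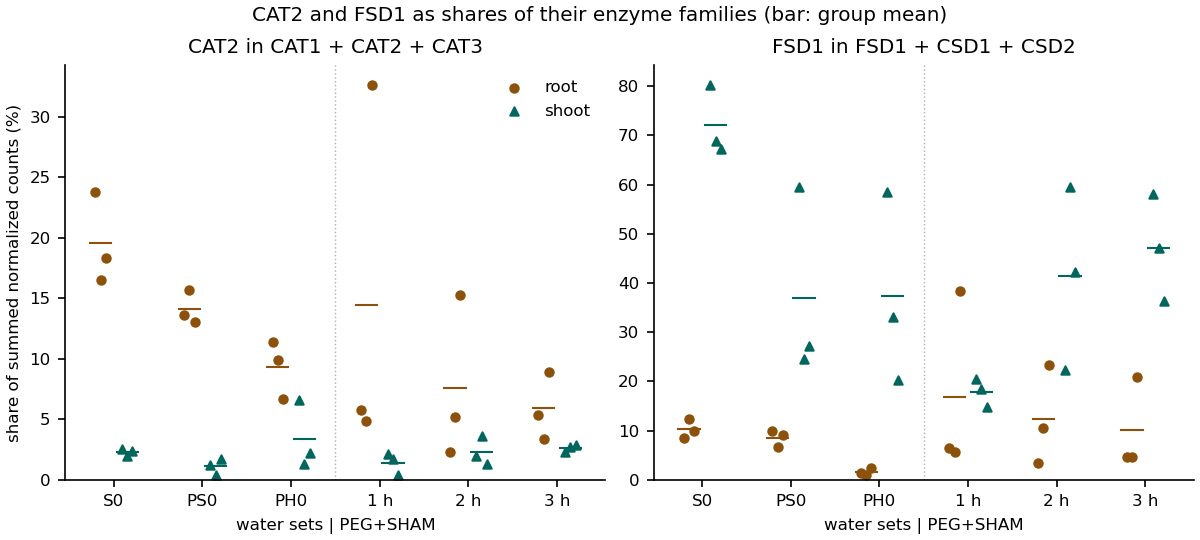
CAT2 as a share of the summed catalase signal and FSD1 as a share of the summed signal of FSD1, CSD1 and CSD2, in percent, in each library. Circles are root and triangles shoot libraries, and bars are group means. Single root libraries stand far above their groups, up to 32.7% for CAT2 and 38.3% for FSD1 in the same library.

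Other genes of these pathways, in 9 lists with 69 genes in the table, were compared with PS0 water in the same fits. In roots limma called 0 of 59 tested at 1 h, 2 at 2 h and 5 at 3 h (1.67%, 3.04% and 6.56% of all genes). In shoots it called 0 of 60 at 1 h, 4 at 2 h and 5 at 3 h (0.87%, 9.42% and 14%). Their counts at an unadjusted p under 0.05 were 7, 9 and 12 in roots (17.3%, 15.1% and 20.8% of all genes) and 2, 14 and 12 in shoots (7.67%, 24.8% and 26.9%). The median log2 difference of the listed genes lay between -0.12 and -0.02 in these 6 comparisons, and that of all genes between -0.16 and -0.02.

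Among the heat shock and clock genes, HSFA3, a heat shock factor of the heat and drought response, rose in roots from 1.90 to 24.3 normalized counts at 2 h (3.34 ± 0.53 SE, limma adjusted p = 0.00122) and to 26.2 at 3 h (3.45 ± 0.53, adjusted p = 3.93e-04). HSFA1E rose in shoots from 0.567 to 10.2 at 2 h (2.82 ± 0.70, adjusted p = 0.0132) and in roots to 12.8 at 3 h (1.97 ± 0.56, adjusted p = 0.0431). HSP101, a chaperone, reached 20.03 in roots at 3 h against 4.87 in PS0 water (2.41 ± 0.69, adjusted p = 0.0445). HSFA3 and HSP101 in roots and HSFA1E in shoots had PS0 means under 5, the lowest value for the filter. HSFA1E in roots was low too, with a mean of 4.77 at 1 h. All of these may have passed the filter through their treated libraries, so their p-values are a description. LUX, a clock gene, rose in roots to 274 at 3 h from 78.3 (1.79 ± 0.22, adjusted p = 6.02e-05).

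Among genes of copper transport and metal uptake, ZIP2 fell in roots at 3 h from 288 to 116 normalized counts (-1.30 ± 0.29, limma adjusted p = 0.00872). In shoots it fell from 38.3 to 9.67 at 2 h (-1.89 ± 0.44, adjusted p = 0.0081) and to 8.37 at 3 h. COPT2, a copper transporter, fell in shoots at 2 h from 8.77 to 1.13 (-2.22 ± 0.60, adjusted p = 0.0236). In the ascorbate list of shoots at 3 h, VTC2, the controlling enzyme of ascorbate synthesis, rose from 104 to 166 (0.70 ± 0.20, adjusted p = 0.0227) and MDAR6 fell from 7.83 to 0.70 (-2.25 ± 0.72, adjusted p = 0.0415). ACX1, a peroxisomal oxidase that makes hydrogen peroxide, rose from 140 to 242 (0.82 ± 0.25, adjusted p = 0.0325). APX4 fell in shoots at 2 h (-2.04 ± 0.63, adjusted p = 0.0445). In treated shoots MDAR6 averaged 2.27, 3.43 and 0.70 at 1, 2 and 3 h, and APX4 5.67, 2.07 and 2.90. Both needed water libraries to pass the filter of 5 or more in 3 libraries. The p-values of MDAR6 and APX4 are therefore a description.

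In a list of 6 genes for peroxisomal sources of hydrogen peroxide, photorespiration and partners of catalase, 4 were called between the tissues in water. All 4 were lower in roots (GOX1, GOX2, HPR1 and NCA1), where 69.3% of all genes were called. ACX1, with 95.1 normalized counts in roots and 118 in shoots (log2 difference -0.32 ± 0.21, limma adjusted p = 0.175), and LSD1 were not called. GOX1 and HPR1, enzymes of photorespiration, averaged 5.09 and 3.42 normalized counts in root and 3964 and 1444 in shoot water libraries (-9.53 ± 0.32 and -8.33 ± 0.30). NCA1, a chaperone needed for catalase activity, was lower in roots too, with 58.4 against 349 (-2.56 ± 0.14). GOX1 and GOX2 are close paralogs, so their split is uncertain. PS0 shoots were lower than S0 and PH0 shoots in GOX1 (-1.07 ± 0.15, limma adjusted p = 1.57e-04) and HPR1 (-1.68 ± 0.17, adjusted p = 3.6e-06), beside the lower CAT2 and APX1. Of 14 further genes of the ascorbate-glutathione cycle, 7 were called higher and 6 lower in roots, beside the same 69.3%. MDAR3 was higher in roots (4.76 ± 0.24) and the chloroplast enzymes TAPX and DHAR3 were higher in shoots (-5.92 ± 0.29 and -3.83 ± 0.13).

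Between replicates APX1 was among the steadiest genes of the table. Its SD within groups was 0.17 on the log2 scale in roots and 0.16 in shoots, and 0.812% and 1.52% of the tested genes had a smaller one. The medians of all tested genes were 0.64 and 0.62. This ranking was not matched for level, and APX1 was high and DHAR1 low in normalized counts. FSD1 and DHAR1 were uneven in both tissues (1.06 and 1.02 in roots, 1.03 and 1.22 in shoots), and CAT2 in roots (1.102). In the treated root libraries FSD1 and CAT2 averaged 175 and 61.6 normalized counts.

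The genes whose pattern was most like that of each member were sought over the 12 group means, each tissue centred on its own mean. This is a description of 12 points that share libraries. For CSD2 the closest of 4251 genes was CCS (r = 0.97), followed by GLDP2 (0.94) and MYB16 (0.93). For CAT2 the closest were BIL4, MAC3B and SPPA (r = 0.96, 0.95 and 0.93), for CAT3 IAA16, GLK2 and PIN4 (0.93, 0.93 and 0.92), and for CAT1 CYP94B1, DIN11 and VSP2 (0.92 each). For APX1 they were ARFA1D, SFGH and PRA8 (0.93 each), and for DHAR1 PMEAMT, HMGB4 and ANNAT2 (0.98, 0.95 and 0.95). For FSD1 they were RMA1, RABG3E and RBX1 (0.94, 0.93 and 0.92), and for CSD1 PDE331, HA7 and HCHIB (0.86, 0.86 and 0.85). For APX2, with its few reads, they were U1.4, OBP1 and U1.8 (0.96, 0.96 and 0.95, among 4252 genes).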

How the data were processed

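RNA was measured by MARS-seq in 36 libraries (3 per group, 12 groups). STAR 2.4.2a, HTSeq, DESeq2, cutadapt and bcl2fastq stand in the submitters' processing notes without roles. Not given in the sources used here: build, annotation, strand, molecular identifiers, gene filter. The deposited values are a normalized signal, read counts divided by a size factor per library and rounded by the authors to 0.1. Whole reads were recovered from them (at least 99.988% of values within 0.05 of a whole read; in 6 libraries rounding was too coarse to show the step from low values alone). Genes at 5 or more in at least 3 libraries of a fit were tested with limma 3.58.1 (trend) on log2(value + 1), with 6 group means per tissue or 12 over both, and adjusted p under 0.05 as the call. edgeR 4.0.16 and DESeq2 1.42.0 on recovered reads, TMM scaling, a pseudocount of 0.5, no filter, the compared groups alone, other water sets as control, a replicate block and left-out libraries were the alternatives. Scripts were tested on simulated data. The 9 members are named in every comparison, and of each other list up to 4 called genes with the largest statistic. A few listed genes (CCS, TOC1, NCA1, TAPX) were taken up for their place beside a member. Members and lists were chosen with earlier results of these data known. The labels call the replicates biological but name no separate cultures, so p-values measure the spread between libraries, which may be technical. Of 36 replicate pairs none was identical.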

Additional observations from a re-analysis of the deposited data

Results flagged for a closer look

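None of the 9 genes met a rule for a closer look, and 2 genes of the other lists did, because their responses to PEG+SHAM differed between roots and shoots by limma's test of the difference itself. For HSFA3 the root change exceeded the shoot change by 2.56 ± 0.60 on the log2 scale at 2 h (SE, adjusted p = 0.0127) and by 2.53 ± 0.60 at 3 h (adjusted p = 0.0106). HSFA3 was low in PS0 root water and may have passed the filter in roots through its treated libraries. Its p-values are therefore a description. For LUX it exceeded it by 1.25 ± 0.31 at 2 h (adjusted p = 0.0188) and by 1.83 ± 0.31 at 3 h (adjusted p = 2.89e-04).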

How the results depend on the processing

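Over 2660 single-gene values recomputed for the 9 members, 2558 kept their side of the threshold, 40 lost a call and 58 gained one. The other 4, all of APX1, were not called against PS0 water and were called with the other sign with other water as control. With S0 and PH0 water these 4 included -0.60 in roots at 3 h (limma adjusted p = 0.0321) and -0.53 and -0.61 in shoots at 2 and 3 h. The last was -0.37 in shoots at 3 h with all 3 water sets. Of the 2558, 217 changed sign, and none of the 217 was called either way. The number of members called at 1, 2 and 3 h became, taking all 3 water sets as control, 1, 1 and 2 for roots and 2 at each time for shoots. With S0 and PH0 water it became 1, 2 and 3 for roots and 3 at each time for shoots, and for the root minus shoot response, with all 3 sets, 1, 1 and 2. In roots at 3 h it was 0 with edgeR, DESeq2, the replicate block or the compared groups alone. Without the libraries under 600 kiloreads, an alternative added after the data were seen, it was 1 in shoots at 3 h, 1 for shoots at 3 h against 1 h, 2 for root S0 against PH0 and 5 for all treated against all water roots. For PS0 against the other water it was 1 in roots with DESeq2, and in shoots 1 with TMM, no filter, edgeR or the replicate block. For root S0 against PH0 it was 2 with DESeq2 or the replicate block, and for all treated against all water roots 4 with edgeR or DESeq2. Leaving out 1 library gave 0 to 1 in roots at 1, 2 and 3 h and in shoots at 3 h, 1 to 3 for shoot PS0 against other water, 0 for root S0 against PH0 and 2 to 5 for all treated against all water roots, and the CAT2 share in roots lay between -7.94 and -3.83 points. With 3 h alone against all 9 water libraries that share differed by -8.42 points (exact permutation p = 0.0182). Against PS0 water only, the 3 h difference was -8.19 points (exact permutation p = 0.1, the smallest possible). The causes were not tested.

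The deviations of same-numbered libraries from their group means correlated by between -0.47 and 0.51 in roots and between -0.22 and 0.49 in shoots, and 15 and 7 of 45 pairs were over 0.1. Not every pair was over 0.1, so the numbers were not taken to pair the libraries. A batch shared by only some of the groups was not tested by this rule. With the replicate block the CAT2 share in roots kept its difference of -5.02 points (p = 0.178 by permutation). Over all genes, calls against PS0 water ranged from 0 to 2472 in roots at 1 h, 87 to 1830 at 2 h and 458 to 2877 at 3 h, and from 37 to 2009, 427 to 2857 and 1274 to 3037 in shoots, lowest with the compared groups alone (in shoots at 3 h with no filter) and highest with S0 and PH0 water as control. Root minus shoot calls ranged from 9 to 491, 181 to 797 and 256 to 929, root S0 against PH0 from 122 to 2122, and 3 h against 1 h from 146 to 309 in roots and 558 to 1384 in shoots. Settings without 1 library are not in these ranges. Leaving out 1 library gave 66 to 410, 230 to 336 and 448 to 845 in roots at 1, 2 and 3 h, and 28 to 139, 624 to 1618 and 931 to 1935 in shoots. It gave 18 to 69, 157 to 321 and 260 to 465 for root minus shoot, 83 to 252 and 390 to 467 for 3 h against 1 h in roots and shoots, 225 to 405 and 621 to 1517 for PS0 against the other water, and 1 to 50 in roots and 492 to 1740 in shoots for S0 against PH0 (463 and 1726 with all libraries). TMM scaling moved the median of all genes by between -0.30 (root S0 against PH0) and 0.23. Depth limits what can be said of APX2 and DHAR1, which rest on few reads.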
